A study of Homo sapiens with 8 samples.

Results

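RBPMS and RBPMS2 are paralogous RNA-binding proteins, and the peaks described here lie on the transcripts of their own genes. They were taken from the 4 deposited peak lists by position and strand on build hg19: chromosome 15 from 65032 to 65068 kb on the minus strand for RBPMS2, and chromosome 8 from 30241 to 30430 kb on the plus strand for RBPMS. These stretches held 52 and 341 listed peaks, 393 of the 194003 in all. By library, RBPMS2 had 15, 19, 6 and 12 and RBPMS 44, 167, 57 and 73 in libraries 1 to 4. No listed peak lay on the opposite strand of either stretch in any library.

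The libraries come from HUES6, an embryonic stem cell line of human origin, with a WT genotype and a treatment given as control, grown in FTDA medium. UV light (400 mJ/cm2, on dishes of some 20M cells) linked proteins to the RNA they touched. In 4 eCLIP libraries the linked RNA was pulled down with an RBPMS-specific antibody, and 4 input libraries, made with no antibody, serve as their reference. Whether the antibody also binds the RBPMS2 protein is not stated, and no label names separate cultures, so the spread between libraries may be technical. Peak lists hold no expression levels, and the cell type was not checked against marker genes.

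RBPMS and RBPMS2 each carry a single RNA recognition motif, through which they pair into dimers, and they favour RNA that holds CAC motifs close together. RBPMS is best known as a regulator of splicing in smooth muscle and is also found in stem cells. RBPMS2 has been studied in smooth muscle of the gut and in the heart. Many RNA-binding proteins bind the transcripts of their own gene or of a paralog, and the peaks at these genes show where crosslinked RNA was pulled down here.

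Each listed peak carries the authors' log2 fold of immunoprecipitation over input and their −log10 p for that comparison. The number of immunoprecipitation and input reads behind a peak was worked out from this pair of values, with at least 1 input read, so that peaks with no input read are counted with those that had 1. This gave reads for 15, 11, 6 and 9 RBPMS2 peaks and 35, 67, 39 and 49 RBPMS peaks in libraries 1 to 4, and for no peak below input. A peak is called enriched here when its log2 is at least 3, or 8-fold, and its −log10 p reaches 3. Between libraries 3 and 4 the reads varied no more than sampling noise (chi-square of 0.99 per degree of freedom over 296 shared peaks, chi-square test p = 0.515, against 5.70 to 11.8 for the other pairs). They were counted as 1 sample, and a mean ± SD is over 3 samples, libraries 1, 2 and the mean of 3 and 4. Library 2 has the longest list, with 118375 peaks against 20254 to 29615 in the other libraries, and 3.09 times the reads of library 1 at shared peaks. Input depth exceeded immunoprecipitation depth 3.18, 1.04, 2.12 and 1.46 times in libraries 1 to 4.

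Both genes had enriched peaks, RBPMS2 in libraries 1, 3 and 4 and RBPMS in all 4. Enriched peaks numbered 2, 0, 1 and 2 for RBPMS2 and 6, 4, 2 and 4 for RBPMS in libraries 1 to 4, with means of 1.17 ± 1.04 and 4.33 ± 1.53 (SD, n = 3). Without library 1 the RBPMS2 mean was 0.75. They made up 13.3%, 0%, 16.7% and 16.7% of the RBPMS2 peaks and 13.6%, 2.40%, 3.51% and 5.48% of the RBPMS peaks, where 15.9%, 5.38%, 12.6% and 12.7% of all listed peaks were enriched. The 0 of 19 in library 2 allows a share of up to 15.8%, taking 3 peaks as the limit. The exact binomial 95% intervals of RBPMS2 are wide, from 1.66 to 40.5% in library 1, up to 17.6% in library 2, from 0.42 to 64.1% in library 3 and from 2.09 to 48.4% in library 4. Those of RBPMS were 5.17 to 27.4%, 0.66 to 6.02%, 0.43 to 12.1% and 1.51 to 13.4% in libraries 1 to 4. In libraries 1, 2 and 4 they include the share of all listed peaks. Peaks with −log10 p of at least 3, whatever their fold, made up 26.7%, 31.6%, 33.3% and 16.7% of the RBPMS2 peaks and 18.2%, 5.99%, 5.26% and 6.85% of the RBPMS peaks, beside 18.2%, 7.47%, 13.8% and 14.1% of all listed peaks.

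On RBPMS2 most reads worked out for pulled-down RNA lay at the 3′ end of the gene. The last 1.1 kb of the stretch, a window set after its values were seen, held 14 of the 52 listed peaks, all 5 enriched peaks and 13 of the 14 peaks with −log10 p of at least 3. It also held 65.3%, 84.6%, 71.4% and 68.2% of the immunoprecipitation reads worked out for RBPMS2 in libraries 1 to 4. Of the input reads of the same RBPMS2 peaks, the window held 54 of 125, 194 of 250, 10 of 19 and 17 of 34. Input reads were thus gathered there too, to a lesser degree. These shares leave out peaks below or near input, which have no worked-out reads and lie outside the window: reads were had for 11 of 19 peaks in library 2, and for 0 of its 5 peaks between 28 and 30 kb. The 14 peaks of the window all lay above input, with log2 folds from 1.42 to 4.17.

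**Figure D1:**
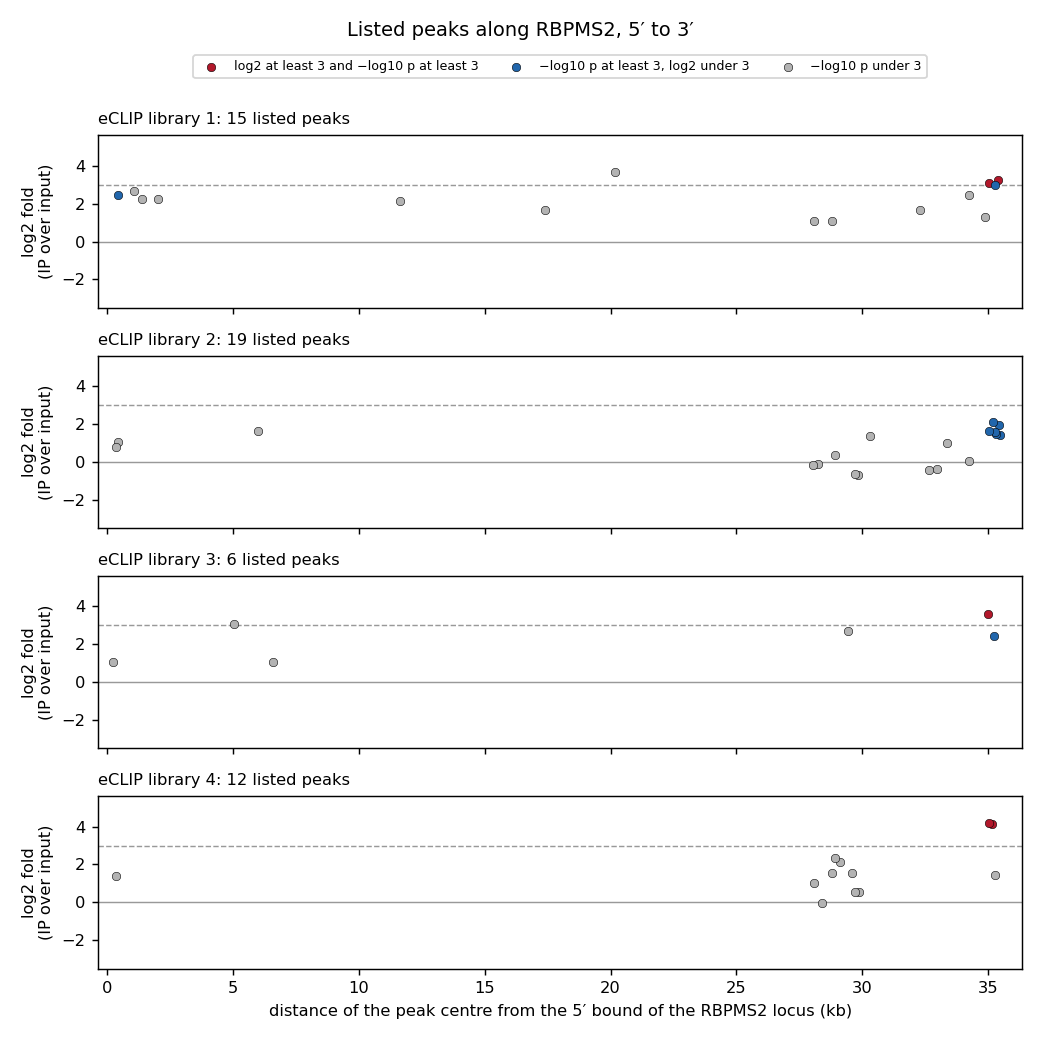
Listed peaks along RBPMS2 in each of the 4 eCLIP libraries. The x axis is the distance of the peak centre from the 5′ bound of the stretch in kb, the y axis the authors' log2 fold of immunoprecipitation (IP) over input, the dashed line marks a log2 of 3, and colours give the class of each peak. The 5 red (enriched) peaks all lie in the last 1.1 kb, and library 2 has blue points there, 6 peaks past the p threshold and under 8-fold.

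The RBPMS2 region enriched in most libraries was chr15:65032899-65033047 on the minus strand, 149 bases wide. The immunoprecipitation and input reads of its peak were 81 and 30 in library 1, 183 and 61 in library 2, 17 and 3 in library 3, and 37 and 3 in library 4. The log2 folds were 3.10, 1.65, 3.59 and 4.17, with a mean of 2.87 ± 1.13 (SD, n = 3), and the authors' −log10 p were 32.4, 15.2, 5.82 and 11.1. Libraries 1, 3 and 4 passed both thresholds, and library 2 passed on p but not on fold. The 95% intervals of these folds, which cover counting error only, were 2.48 to 3.76, 1.22 to 2.09, 1.80 to 6.0 and 2.51 to 6.51 in libraries 1 to 4.

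Next to it, chr15:65032662-65032819 was listed in all 4 libraries and enriched in none. Its peak with the highest log2 had 47 immunoprecipitation reads against 19 input reads in library 1, 77 against 19 in library 2, 18 against 7 in library 3 and 24 against 13 in library 4. These gave log2 folds of 2.97, 2.08, 2.45 and 1.43, a mean of 2.33 ± 0.56 (SD, n = 3). Library 1 fell just short of 8-fold, with −log10 p of 18.1, and library 4 did not reach the p threshold (2.32).

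Both other enriched peaks of RBPMS2 were found in 1 library each. In library 1 the peak chr15:65032578-65032614 had 15 immunoprecipitation reads and 5 input reads (log2 3.25), and it met a peak of library 2 with 66 and 18 reads (log2 1.94, −log10 p 6.99). In library 4 the peak chr15:65032825-65032872 had 12 immunoprecipitation reads and 1 input read (log2 4.13), and no other library listed it. The library 1 site was not listed in libraries 3 and 4. With all peaks of the last 1.1 kb summed, immunoprecipitation reads stood at 143, 584, 35 and 73, against 54, 194, 10 and 17 input reads, in libraries 1 to 4. The log2 fold of these sums was 3.07 (95% counting interval 2.61 to 3.55), 1.65 (1.41 to 1.89), 2.89 (1.85 to 4.07) and 2.65 (1.87 to 3.50), with a mean of 2.5 ± 0.75 (SD, n = 3). The peaks summed were called separately in each library and differ, with 3, 6, 2 and 3 peaks over 280, 415, 178 and 279 bases and a mean peak log2 of 3.11, 1.68, 3.02 and 3.24, so the ratios describe these peaks and were not tested.

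Outside the last 1.1 kb 1 RBPMS2 peak passed the p threshold. Peaks above input were listed there all the same: each library 1 peak outside the window had a log2 of at least 1.08. Above 8-fold stood chr15:65047779-65047842 in library 1 (log2 3.67, −log10 p 1.88) and chr15:65062915-65062957 in library 3 (log2 3.09, −log10 p 1.41), both on 4 immunoprecipitation reads and 1 input read. Within the first 0.5 kb, at the 5′ end, 5 peaks were listed, at least 1 in every library, and the library 1 peak chr15:65067553-65067579 is the one that passed the p threshold, with 12 immunoprecipitation and 7 input reads (log2 2.44, −log10 p 3.50). The peak of library 2 there had 35 and 18 reads and a log2 of 1.02. Both this site and its neighbour chr15:65067623-65067667, with log2 folds of 0.80 in library 2 and 1.39 in library 4, were listed in 2 libraries. Between 28 and 30 kb from the 5′ bound lay 16 peaks with log2 from -0.68 to 2.67, and none passed the p threshold. The sites there listed in more than 1 library were chr15:65039854-65039985, at 1.08, -0.15 and 1.03 in libraries 1, 2 and 4, chr15:65039043-65039108, at 0.36 and 2.35 in libraries 2 and 4, and chr15:65039160-65039215, at 1.08 and 1.54 in libraries 1 and 4. Those at chr15:65038256-65038300 and chr15:65038111-65038166 had -0.62 and -0.68 in library 2, and 0.54 each in library 4. Finally chr15:65033727-65033783 had log2 folds of 2.47 in library 1 and 0.06 in library 2. Of the 34 sites formed by merging overlapping peaks of RBPMS2, 23 were listed in 1 library, 8 in 2, 1 in 3 and 2 in all 4.

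On RBPMS, 16 peaks were enriched, and they were spread over a much longer stretch of 189 kb. They formed 11 regions, of which 2 were enriched in 3 libraries, 1 in 2 libraries and 8 in 1 library. Counting libraries 3 and 4 as 1 sample, 3 RBPMS regions were enriched in at least 2 of 3 samples. With −log10 p of at least 5 in place of 3, 0 RBPMS regions were enriched in 3 libraries. Cut into 4 stretches of equal length, from 5′ to 3′, the gene held 6, 4, 0 and 6 enriched peaks among 126, 61, 38 and 116 listed, and 10, 4, 0 and 12 peaks with −log10 p of at least 3. All 16 rested on at least 8 immunoprecipitation reads, and 5 of them had 1 input read, the lowest number allowed.

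**Figure D2:**
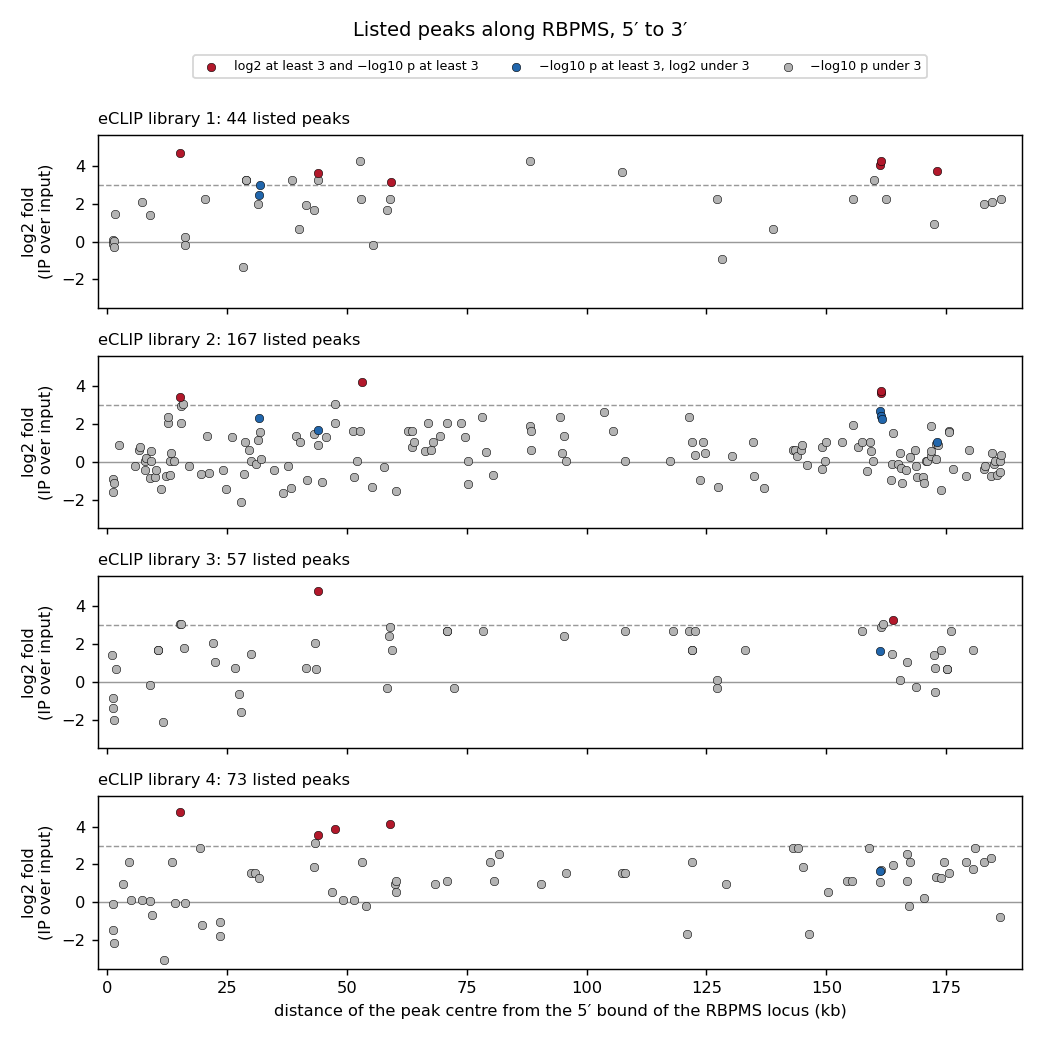
Listed peaks along RBPMS in each of the 4 eCLIP libraries. The x axis is the distance of the peak centre from the 5′ bound of the stretch in kb, the y axis the authors' log2 fold of immunoprecipitation (IP) over input, the dashed line marks a log2 of 3, and colours give the class of each peak. Enriched peaks lie near 15.2 and 44.0 kb in 3 libraries each (in 0 regions with −log10 p of at least 5), the peaks past the p threshold between 161 and 162 kb number 2, 5, 1 and 1 in libraries 1 to 4, and 10 of the 13 points in the first 1.5 kb lie below 0.

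Of the RBPMS regions enriched in more than 1 library, the highest was chr8:30256173-30256320 on the plus strand, 15.2 kb from the 5′ bound. Its peak had 8 immunoprecipitation reads and 1 input read in library 1, 41 and 4 in library 2, 8 and 2 in library 3, and 19 and 1 in library 4. The log2 folds were 4.67, 3.42, 3.09 and 4.79, a mean of 4.01 ± 0.63 (SD, n = 3), with −log10 p of 4.12, 8.51, 2.59 and 6.33. All 4 libraries stood above 8-fold, and library 3 alone missed the p threshold.

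The other region enriched in 3 libraries, chr8:30284862-30285042, lay 44.0 kb from the 5′ bound. Immunoprecipitation and input reads of its highest peak were 23 and 6 in library 1, 43 and 14 in library 2, 13 and 1 in library 3, and 16 and 2 in library 4. Log2 folds of 3.61, 1.68, 4.79 and 3.54 gave a mean of 3.15 ± 1.30 (SD, n = 3). Library 2 was again the lowest and passed on p alone (−log10 p 3.96), as at the 3′ end of RBPMS2. The counting intervals from summed reads were 2.36 to 4.87, 0.78 to 2.66, 2.05 to 10.20 and 1.45 to 6.71 in libraries 1 to 4.

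The remaining one, chr8:30402348-30402460, was enriched in libraries 1 and 2, with 24 and 88 immunoprecipitation reads over 4 and 7 input reads (log2 4.25 and 3.71). Libraries 3 and 4 had 7 and 9 over 2 and 4 reads there (log2 2.89 and 1.71), and the mean of the 3 samples was 3.42 ± 1.01 (SD). It belongs to the densest run of immunoprecipitation reads on RBPMS, the stretch between 161 and 162 kb from the 5′ bound, which was singled out after its values were seen. That run held 13 of the 341 listed peaks, 4 of the 16 enriched ones and 9 of the 26 with −log10 p of at least 3. The share of the immunoprecipitation reads worked out for RBPMS that fell in it was 33.2%, 39.3%, 17.6% and 18.4% in libraries 1 to 4, again without the peaks below or near input. Of the input reads of the same RBPMS peaks, the run held 20 of 134, 72 of 350, 18 of 101 and 29 of 114. In libraries 3 and 4 its share of input reads was thus no lower than its share of immunoprecipitation reads.

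Within the run the largest peak of library 1, chr8:30402082-30402272, had 82 immunoprecipitation and 16 input reads (log2 4.02, −log10 p 42.2). The peak of library 2 at the same place, chr8:30402044-30402263, had 230 and 38 reads (log2 2.66, −log10 p 32.5). Library 3 had 22 and 15 reads there (log2 1.64), and library 4 had 19 and 13 reads in one peak and 26 and 12 in the next (log2 1.09 and 1.66). Summed over the run, reads were 106, 484, 33 and 54 after immunoprecipitation and 20, 72, 18 and 29 in input, in libraries 1 to 4. The log2 folds of the sums were 4.07 (95% counting interval 3.37 to 4.84), 2.81 (2.45 to 3.19), 1.96 (1.09 to 2.88) and 1.44 (0.76 to 2.14), with a mean of 2.86 ± 1.19 (SD, n = 3). As at RBPMS2 the summed peaks differ between libraries, with 2, 5, 3 and 3 peaks over 269, 513, 148 and 232 bases and a mean peak log2 of 4.14, 2.94, 2.54 and 1.49, and no order among libraries was tested.

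The sums at the 3′ end of RBPMS2 and in the RBPMS run can be set side by side. Taken as RBPMS2 minus RBPMS, the log2 folds of their summed reads differed by -1.0 and -1.16 in libraries 1 and 2, and by 0.93 and 1.21 in libraries 3 and 4. The mean difference was -0.36 ± 1.24 (SD, n = 3), given with no test because both windows were chosen for their values. The codes in the labels share a first part between libraries 1 and 2 and another between libraries 3 and 4, and what it stands for is not stated. Its part in this split was not tested.

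**Figure D3:**
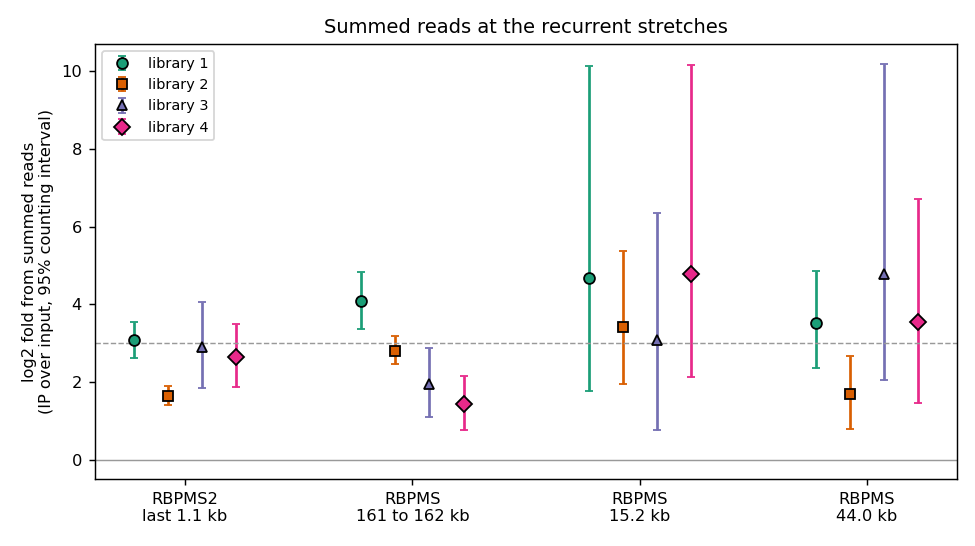
Log2 fold of immunoprecipitation (IP) over input from summed reads (y axis, no unit) at the last 1.1 kb of RBPMS2, the 161 to 162 kb run of RBPMS and the RBPMS regions at 15.2 and 44.0 kb (x axis), for each library. Points are single libraries, bars are exact 95% intervals of counting error, and the dashed line marks a log2 of 3. The points run from 1.65 to 3.07 at the RBPMS2 window and from 1.44 to 4.07 at the RBPMS run, both over peaks that differ between libraries.

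Other enriched RBPMS peaks were found in 1 library each. Library 2 had chr8:30294148-30294260, with 35 immunoprecipitation reads over 2 input reads (log2 4.19, −log10 p 8.51). Library 1 had chr8:30414020-30414183, with 38 over 9 reads (log2 3.75, −log10 p 18.5), where library 2 had 74 over 37 (log2 1.06, −log10 p 3.56). The counting intervals there were 2.67 to 4.98 in library 1 and 0.47 to 1.67 in library 2. In library 4, chr8:30288599-30288662 had 10 over 1 reads (log2 3.86), and in library 3 chr8:30404794-30404895 had 9 over 2 (log2 3.26, −log10 p 3.0).

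Around 59 kb from the 5′ bound 3 libraries listed peaks that did not all overlap. Library 4 had 12 immunoprecipitation reads over 1 input read at chr8:30300041-30300125 (log2 4.13), and library 3 had 7 over 2 at the overlapping chr8:30300082-30300138 (log2 2.89, −log10 p 2.19). Library 1 had 11 over 4 at chr8:30300240-30300311 (log2 3.13), which met no peak of another library. At chr8:30272619-30272748, 31.7 kb from the 5′ bound, log2 folds of 2.44 in library 1 and 2.29 in library 2 passed the p threshold under 8-fold, on 12 over 7 and 47 over 10 reads. Library 4 had 1.28 there on 5 over 3 reads.

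Most peaks at the 5′ end of RBPMS lay below input: 10 of the 13 listed in the first 1.5 kb, with none past the p threshold. The highest was chr8:30241959-30241985 in library 3, with 5 over 4 reads and a log2 of 1.41 (−log10 p 0.81), which no other library listed. Of 7 RBPMS sites listed in all 4 libraries, 3 lay within 1.5 kb of the 5′ bound. At chr8:30242267-30242369 the log2 fold was -0.14, -1.61, -1.36 and -1.46 in libraries 1 to 4, below input in each. At chr8:30242120-30242260 it was 0.08, -0.91, -0.84 and -0.06, and at chr8:30242370-30242452 it was 0.00, -1.14, -2.02 and -2.15. Library 1 was the highest of the 4 libraries at each of these 3 sites, and libraries 2 to 4 were below input at all 3. The authors' −log10 p is 0 for each peak with log2 below 0, so loss against input was not tested. A 4th such site, chr8:30249930-30250025, had 1.40, -0.85, -0.14 and 0.06. The 3 others listed in all 4 libraries are the regions at 15.2 and 44.0 kb and the start of the 161 to 162 kb run.

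Merging overlapping peaks gave 259 RBPMS sites, 210 of them listed in 1 library, and 123 of those in library 2, which has the longest list. Sites in all 4 libraries made up 2.70% of the RBPMS sites and 5.88% (2 of 34) of the RBPMS2 sites, beside 2.19% of all 154731 sites of the lists. The 3 enriched regions of RBPMS2 and the 11 of RBPMS included 1 and 2 that were enriched in at least 3 libraries, beside 22.7% of the 7472 enriched regions in the whole lists. Counts this small cannot be set apart from that share.

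The comparison with the lists as a whole asked whether the listed peaks of these genes stood above input more or less than other peaks. RBPMS peaks were less often enriched than the rest of the lists in 4 of 4 libraries, by 4.48 ± 3.19 points (SD, n = 3). This rests on 6, 4, 2 and 4 enriched peaks, and the binomial intervals of libraries 1, 2 and 4 include the share of all listed peaks. The median log2 fold of RBPMS peaks was 1.40 ± 0.89 against 2.24 ± 1.1 for the rest, a difference of -0.84 ± 0.22 (SD, n = 3 each). In libraries 1 to 4 the RBPMS medians were 2.25, 0.48, 1.67 and 1.28, and those of the rest 3.25, 1.06, 2.67 and 2.13. In libraries 1, 3 and 4 the medians of the rest equal the log2 fold of 3 immunoprecipitation reads over 1 input read. These are the lowest read numbers worked out, and the part of low reads in the difference was not tested. More of the RBPMS peaks lay below input: 13.6%, 34.1%, 21.1% and 20.5%, beside 2.84%, 15.6%, 4.29% and 7.42% of all listed peaks, a difference from the rest of 14.8 ± 3.89 points (SD, n = 3). The exact two-sided sign-flip permutation p was 0.25 for each of these differences, the smallest that 3 samples can give, and 0.375 after Benjamini-Hochberg adjustment over 12 such comparisons, none of which could pass 0.05.

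RBPMS2 peaks had no common direction in enriched share. It was 10.0% ± 8.82 against 11.3% ± 5.40 for the rest, lower in 2 libraries and higher in 2 (exact two-sided sign-flip permutation p = 0.75, n = 3; adjusted p = 0.9). The RBPMS2 share of peaks with −log10 p of at least 3 exceeded that of the rest by 14.5 ± 8.40 points and that of RBPMS by 17.7 ± 8.62 points (SD, n = 3), in 4 of 4 libraries each, with an exact sign-flip permutation p of 0.25, the smallest possible, and 0.375 after adjustment. Of the 14 such RBPMS2 peaks 9 were under 8-fold, 6 of them in library 2. The 14 were 4 of 15, 6 of 19, 2 of 6 and 2 of 12 listed peaks in libraries 1 to 4. In library 2 the site chr15:65032662-65032819 was listed as 3 abutting peaks, each past the p threshold. Each other library listed it as 1 peak. A share of peaks depends on such splitting, and its part in the excess was not tested. Where reads were worked out, RBPMS2 peaks had medians of 7, 64, 4 and 7 immunoprecipitation reads, against 4, 4, 3 and 4 for the rest. A p threshold depends on read number as well as fold, and the part of read number in the excess was not tested. The median log2 fold of RBPMS2 peaks was 2.25, 0.97, 2.56 and 1.49 in libraries 1 to 4, below that of the rest in each (mean difference -0.49 ± 0.46, SD, n = 3; exact sign-flip permutation p = 0.25). Here too the medians of the rest in libraries 1, 3 and 4 are those of the lowest read numbers.

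**Figure D4:**
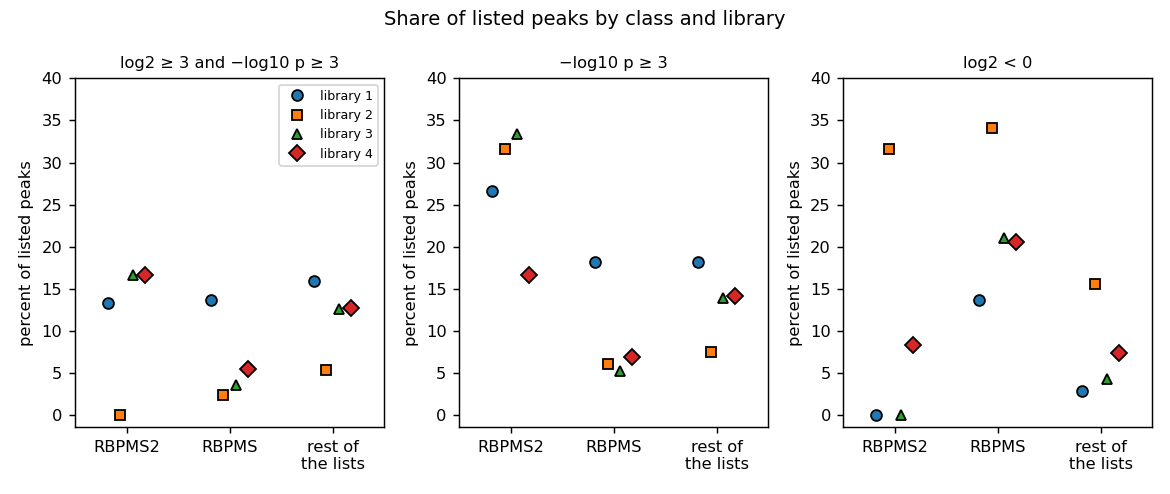
Percent of listed peaks (y axis) that were enriched (left), had −log10 p of at least 3 (middle) or had log2 below 0 (right), for RBPMS2, RBPMS and the rest of the lists (x axis), with 1 point per library. RBPMS lies below the rest in the left panel, on 6, 4, 2 and 4 enriched peaks in libraries 1 to 4, and above it in the right panel in each library. RBPMS2 lies above the rest in the middle panel in each library, on 4, 6, 2 and 2 peaks in libraries 1 to 4, some of those in library 2 abutting one another.

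Set against each other, RBPMS2 and RBPMS differed in enriched share by less than the spread between samples, by 3.16 ± 7.88 points for RBPMS2 minus RBPMS, with RBPMS2 higher in 2 libraries and lower in 2 (exact two-sided sign-flip permutation p = 1, n = 3; adjusted p = 1). Fewer RBPMS2 than RBPMS peaks lay below input, 11.9% ± 17.2 and 22.9% ± 10.4 (SD, n = 3), and each library showed this order. The RBPMS2 counts were small, 0 of 15, 6 of 19, 0 of 6 and 1 of 12 in libraries 1 to 4. In library 2 the shares were close, 31.6% and 34.1%, beside 15.6% of all listed peaks. In libraries 1, 3 and 4 the share of all listed peaks was 2.84%, 4.29% and 7.42%. The exact two-sided sign-flip permutation p of the difference between the genes was 0.25 (adjusted 0.375), the lowest available to 3 samples.

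The position of each peak within exons, introns or untranslated regions was not assigned, since gene annotation on hg19 was not used here. In the RefSeq gene table of GRCh38, RBPMS is 187716 bases long and is overlapped by RBPMS-AS1, LOC112268025 and LOC124901929, and RBPMS2 is 35699 bases long and is overlapped by MIR1272. That table gives no strand, so reads of an overlapping gene on the same strand cannot be told apart from those of RBPMS or RBPMS2.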

How the data were processed

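Peaks of eCLIP in HUES6 cells were deposited as 1 list per library, so peaks were called per library; the input libraries have no list. Coordinates are on hg19, per the submitters' processing notes; aligner and peak caller: not given in the sources used here. The deposited values are the authors' −log10 p, which stops at 400, and the authors' log2 fold of immunoprecipitation over input.

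Read numbers were computed here as the whole numbers whose log2 ratio plus 1 constant per library gives the deposited log2, and whose p (chi-square with continuity correction where observed and expected numbers are at least 5, otherwise exact) matches within a relative tolerance of 0.003. This was done for log2 above 0 and −log10 p of at least 0.3, leaving out values at the ceilings, and gave 99.9% or more of such peaks in each library (24008, 68199, 17904 and 23838 peaks). How the authors computed p is not stated. On 6182 simulated peaks, 0 came back wrong. Intervals from reads are exact binomial 95% intervals and cover counting error only.

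Enriched peaks sharing at least 1 base on a strand were merged into regions; per library, a region took the highest log2 fold among its enriched peaks, or among its listed peaks where none was enriched. Regions enriched in at least 2 libraries were named, and for RBPMS2, with fewer than 3, also the sites listed in at least 2. Libraries were compared over 1-to-1 pairs of peaks with 80% overlap or more and at least 40 reads. Python 3.11.15, pandas 2.3.3, numpy 2.4.6 and scipy 1.17.1 were used. The genes, lists and tests were chosen with earlier results of these data known. Alternatives tried were other p and fold thresholds, wider bounds, peaks wholly inside, a read minimum of 13, other merging and library numbers, and each library left out. No sequence is printed, because no hg19 genome was used here.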

Additional observations from a re-analysis of the deposited data

Results flagged for a closer look

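Of 18 quantities compared over the 4 libraries, 1 had a library farther from the others than Dixon's criterion allows, and chance would give about 0.9. In library 1, 18.2% of the RBPMS peaks had −log10 p of at least 3, and the next highest value was 6.85% in library 4. Among all listed peaks the shares were 18.2%, 7.47%, 13.8% and 14.1% in libraries 1 to 4. The flagged value thus stood at the share of its own library. The gap between the RBPMS values of libraries 1 and 4 made up 0.877 of the whole range.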

How the results depend on the processing

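No paired analysis was possible because eCLIP and input libraries were not fitted as separate samples: the deposited ratio already sets each eCLIP library against input, and differences between the genes were taken within each library. With log2 of at least 1, mean enriched peaks numbered 4.0 at RBPMS2 and 7.33 at RBPMS, and with log2 of at least 4 they numbered 0.33 and 1.83. At log2 of at least 1 these were the same peaks as those with −log10 p of at least 3, whatever their fold. Shares of all listed peaks at these altered fold thresholds were not worked out. With each library left out, mean enriched peaks at the main thresholds lay between 0.75 and 1.75 at RBPMS2 and between 3.50 and 4.67 at RBPMS. Regions enriched in all 4 libraries numbered 0 at RBPMS2 and 0 at RBPMS. With −log10 p of at least 5, RBPMS had 0 regions enriched in at least 3 libraries, and RBPMS2 kept 1. With log2 of at least 1 RBPMS2 had 2. The direction of such changes is largely set by the thresholds, but their size is not. Restricted to peaks whose −log10 p reached 3, the median log2 fold was 2.74 at RBPMS2 and 3.26 at RBPMS. The difference in enriched share, RBPMS2 minus RBPMS, kept its sign in all alternatives run, from 2.83 to 17.7 points, the highest with log2 of at least 1 (exact sign-flip permutation p = 0.25, n = 3). That highest value is the difference in peaks with −log10 p of at least 3 given above, not a separate result. At the main thresholds the difference was -0.30, -2.40, 13.2 and 11.2 points in libraries 1 to 4. Its sign there rests on libraries 3 and 4, counted as 1 sample, and no alternative left out both. Of 61 alternatives, 50 kept a count within 1.5 times, a median within 1 SD, or the sign of the share difference. All 58 for single regions and sites moved by no more than 1 SD of the same values. With 2 or 3 samples this was nearly fixed in advance, as for the medians with a library left out, so it is no sign of stability. The SD is wide where 2 libraries listed a site. There chr15:65033727-65033783 had 1.27 over both libraries and 0.06 without library 1, and chr15:65039043-65039108 had 1.36 and 0.36 without library 4. The site chr15:65038256-65038300 had -0.04, and 0.54 without library 2 or -0.62 without library 4. Depth limits single peaks, since most rest on few reads: the median was 4 immunoprecipitation reads for RBPMS in libraries 1, 3 and 4.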

Other observations

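The lowest log2 fold on RBPMS was found 11.8 kb from the 5′ bound, at -3.04 in library 4 (chr8:30252776-30252817) and -2.08 in library 3 (chr8:30252735-30252804), and libraries 1 and 2 listed no peak there. Library 2 had a value of -1.45 in the vicinity, at chr8:30252161-30252236.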
